A study of Mus musculus with 19 samples.

Results

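The forkhead genes encode transcription factors that share a winged-helix DNA-binding domain, the forkhead box, and carry a subfamily letter and a number in their symbols. They were taken here as all genes whose probe annotation symbol is Fox followed by 1 letter and a number. This rule gave 37 of the 18193 genes measured, each read by its probe set of highest mean level, and it used no difference between cell populations. The members' 82 probe sets left 16 genes with 1 probe set and 21 genes with several.

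Forkhead factors act at several points of skeletal development. In mouse cartilage, Foxa2 and Foxa3 promote the hypertrophic differentiation of chondrocytes, the last step before cartilage is replaced by bone, and Foxc1 and Foxc2 act in skeletal mesenchyme and endochondral bone formation. Foxo factors are held out of the nucleus by insulin and Akt signalling and regulate stress-response and cell cycle arrest genes, whereas Foxm1 drives genes of mitosis.

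Wild-type mice at postnatal day 3 gave the cells. The labels also describe the mice as GFP-labeled and name a pooled litter and its fore and hind limbs as the source. All populations were sorted as CD45-, Ter119- and Tie2-negative and AlphaV+ cells and differed in the surface antigens Thy, 6C3 and CD105. There were 6 populations: Thy+ cells with CD105 (Thy+6C3-CD105+) or without it (Thy+6C3-CD105-), 6C3+ cells with it (Thy-6C3+CD105+) or without it (Thy-6C3+CD105-), and cells lacking both with it (Thy-6C3-CD105+) or without it (Thy-6C3-CD105-). Each had 3 arrays, 18 in all, and 1 further array held adult cells labelled Thy+6C3+CD105+. Amplified RNA was hybridized to Affymetrix mouse arrays, and levels are given on the log2 scale, on which a difference of 1 is a doubling. Nothing in the labels places the 3 arrays of a population in separate litters, so p-values measure the spread between these arrays, which may be technical. In sorted bulk samples, fewer cells of a type and less RNA per cell cannot be told apart.

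Some arrays stood apart or went against their labels. Replicates 2 and 3 of Thy-6C3+CD105- carry titles that name Thy+, but their population field names Thy- and Thy1 was at 5.78 and 5.95 there. Thy1 ran between 9.99 and 10.47 on Thy+ arrays, against 4.96 to 5.95 on Thy- arrays, and Enpep, which encodes 6C3, between 10.69 and 11.24 on 6C3+ arrays, against 6.20 to 8.83 on 6C3- arrays. By population mean, Ptprc, which encodes CD45, lay between 4.03 and 4.72, Tek, the Tie2 gene, between 4.79 and 6.39, and Itgav, the AlphaV gene, between 10.53 and 11.14. Tek was higher on every Thy+ array (5.70 to 6.50) than on any Thy- array (4.68 to 5.12), although all cells were sorted as Tie2-negative. Replicate 3 of Thy+6C3-CD105- had Eng, the CD105 gene, at 8.58, against its label, where its replicates had 7.51 and 7.61. Its mean correlation with those replicates was 0.936 over all genes. Its deposited median was 5.91, where the highest of all arrays was 6.02. On this replicate, 18 of the 37 forkhead genes had their highest or lowest level of the 18 arrays. Counts of called forkhead genes and called forkhead differences that use this array are given with and without it.

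Each comparison set an antigen-positive population against its antigen-negative counterpart with limma over the 18 arrays. The Thy step sets Thy+6C3- against Thy-6C3- cells and the 6C3 step sets Thy-6C3+ against Thy-6C3- cells, each once with and once without CD105, and the CD105 step sets CD105+ against CD105- cells of otherwise equal antigens. Thy+ cells were also set against 6C3+ cells. A gene was called at a Benjamini-Hochberg adjusted p under 0.05 over the 18193 genes. In all, 13 forkhead genes were called in at least 1 of the 9 comparisons and 24 in none. The moderated F-test over the 6 populations passed 5 of the 37, or 13.5%, beside 10.1% of all genes, a share near the background, with 4 where 10.9% of all genes passed without Thy+6C3-CD105- replicate 3, and 3 where 8.1% and 8.09% passed without Thy+6C3-CD105+ replicate 2 or 3. Those 5 were Foxa2, Foxa3, Foxc1, Foxc2 and Foxo3.

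Foxa2, Foxa3 and Foxc1 kept their calls in both Thy steps under every alternative that tested them, and their promoters are shown for that reason. RefSeq's promoter table for mouse, build GRCm38.p6, matched 24 of the 37 members. Each entry covers 300 bases, from 250 before to 50 after a start site. The Foxa2 entry, the outermost of 3 starts in that table, lies at chr2:148046920-148047219 on the minus strand. Foxa3 lies at chr7:19023490-19023789 on the minus strand and Foxc1 at chr13:31806396-31806695 on the plus strand. Sequences run 5′ to 3′, and capitals mark the motif match in Foxa3 (a TATA box, TATAAA) and in Foxc1 (a Runx motif, TGTGGT). Foxa2 held none of the motifs searched.
Foxa2: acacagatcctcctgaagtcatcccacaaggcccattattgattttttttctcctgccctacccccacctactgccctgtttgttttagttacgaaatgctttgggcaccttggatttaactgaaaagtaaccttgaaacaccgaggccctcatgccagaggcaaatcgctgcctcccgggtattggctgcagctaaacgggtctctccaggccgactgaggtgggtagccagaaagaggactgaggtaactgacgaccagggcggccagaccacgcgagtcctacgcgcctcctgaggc
Foxa3: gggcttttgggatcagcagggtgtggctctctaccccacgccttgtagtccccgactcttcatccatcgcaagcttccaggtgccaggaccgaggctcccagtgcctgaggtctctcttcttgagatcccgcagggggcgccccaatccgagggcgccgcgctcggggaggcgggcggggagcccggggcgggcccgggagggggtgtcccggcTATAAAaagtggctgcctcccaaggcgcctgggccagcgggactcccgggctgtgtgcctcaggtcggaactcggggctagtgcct
Foxc1: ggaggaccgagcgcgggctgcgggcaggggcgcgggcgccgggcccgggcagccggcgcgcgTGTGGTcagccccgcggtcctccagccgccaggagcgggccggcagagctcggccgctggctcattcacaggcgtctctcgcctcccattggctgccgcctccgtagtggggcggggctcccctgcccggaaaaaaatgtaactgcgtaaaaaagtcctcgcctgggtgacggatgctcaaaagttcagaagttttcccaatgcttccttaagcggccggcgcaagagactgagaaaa
The GC content was 54.3% in the Foxa2 window, 69% in that of Foxa3 and 67.3% in that of Foxc1.

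The motifs searched were a forkhead motif (TGTTTAC or GTAAACA), a Gli motif (GACCACCCA or TGGGTGGTC), a Runx motif (TGTGGT or ACCACA), a Sox motif (AACAAT or ATTGTT) and the TATA box on the forward strand. None of these motifs contains another, though matches of different motifs can overlap in a promoter. Over 32851 promoters in the table, the forkhead motif was in 3.65%, the Gli motif in 0.253%, the Runx motif in 16.8%, the Sox motif in 10.7% and the TATA box in 8.32%. Of the 29 promoters of forkhead genes, the forkhead motif was in 1 (Foxa1), the Runx motif in 1 (Foxc1), the Sox motif in 1 (Foxp1), the TATA box in 2 (Foxa3 and Foxp3) and the Gli motif in 0. These matches describe letters in the windows.

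The Foxa genes gave the widest differences. Foxa2 and Foxa3 were lower in every population that carried Thy or 6C3 than in the Thy-6C3- populations, and Foxa3 was lower again in Thy+ than in 6C3+ cells. CD105 was not accompanied by a called difference in either gene.

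Foxa2, a pioneer factor of endoderm and floor plate, was at 5.92, 5.79 and 5.27 in Thy+6C3-CD105+ cells and at 6.33, 6.00 and 6.09 in Thy-6C3+CD105+ cells, against 8.12, 7.81 and 8.37 in Thy-6C3-CD105+ cells. Among CD105- cells it was at 5.60, 5.51 and 5.99 with Thy and at 5.98, 6.29 and 5.61 with 6C3, against 7.89, 8.28 and 8.86 in Thy-6C3-CD105- cells. The 12 antigen-positive arrays all lay below the 6 arrays of the Thy-6C3- populations. Across the Thy step Foxa2 was 5.42-fold lower in CD105+ cells (log2 difference -2.44 ± 0.27 SE, limma adjusted p 9.13e-06) and 6.26-fold in CD105- cells (-2.65 ± 0.27, adjusted p 3.61e-06; -2.79 without Thy+6C3-CD105- replicate 3). Across the 6C3 step it was 3.88-fold lower with CD105 (-1.96, adjusted p 0.000485) and 5.21-fold lower without it (-2.38, adjusted p 3.43e-05). Between Thy+ and 6C3+ cells the differences of -0.48 and -0.26 (SE 0.27 each) were not called, with adjusted p 0.825 and 0.619.

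Foxa3, the third member of the liver-enriched Foxa group, was at 4.47, 4.56 and 4.80 in Thy+6C3-CD105+ cells and at 7.13, 6.47 and 5.95 in Thy-6C3+CD105+ cells, against 8.37, 8.86 and 9.27 in Thy-6C3-CD105+ cells. Among CD105- cells it was at 4.38, 4.68 and 4.52 with Thy and at 6.05, 6.62 and 5.63 with 6C3, against 9.67, 9.25 and 7.90 in Thy-6C3-CD105- cells. The 3 pairs of populations occupied 3 ranges that did not overlap, with Thy+ arrays lowest and Thy-6C3- arrays highest. In Thy+ cells Foxa3 was 18.7-fold lower than in Thy-6C3- cells when both carried CD105 (-4.23 ± 0.39, limma adjusted p 1.96e-06) and 21.3-fold lower when neither did (-4.41, adjusted p 7.90e-07; -4.41 without Thy+6C3-CD105- replicate 3). The Thy+ means of 4.61 and 4.53 lay in the range of Ptprc in these CD45- cells, where folds may be bounded by the low end of the array scale. In 6C3+ cells it was 4.99-fold lower than in Thy-6C3- cells with CD105 (-2.32, adjusted p 0.00388) and 7.15-fold lower without it (-2.84, adjusted p 0.000280). Thy+ cells lay 3.75-fold below 6C3+ cells with CD105 (-1.91, adjusted p 0.00883) and 2.98-fold without it (-1.57, adjusted p 0.0404). That last call was lost without any of 9 arrays, with limma adjusted p 0.10 without Thy+6C3-CD105- replicate 3 and 0.220 without Thy-6C3+CD105- replicate 2. The compared populations only, array weights, grouping by title and leaving out the 2 arrays of highest deposited median each lost it too. The CD105+ call was lost only when Thy-6C3+CD105+ replicate 1 was left out (-1.60, limma adjusted p 0.0728).

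Foxa1, the remaining member of the subfamily, averaged 4.46 over all arrays (range 3.98 to 5.18) and was called nowhere. Its signal lay below the median gene mean of 6.76. The Thy+ and 6C3+ means of Foxa2 and Foxa3 also lay below that mean (6C3+ means of 6.14 and 5.96 for Foxa2 and 6.52 and 6.10 for Foxa3), where an array's background limits how low a level can read. No detection calls were used here, so the folds of both genes in the Thy and 6C3 steps carry that limit.

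Marker lists of several cell types moved in the same steps. All 10 chondrocyte genes were called lower in both Thy steps, and 4 and 6 of the 10 in the 6C3 steps with and without CD105. The list's mean level per array ran from 8.92 to 9.81 on Thy+ arrays and 9.88 to 10.66 on 6C3+ arrays, against 12.36 to 12.55 on Thy-6C3- arrays. Of 6 measured osteoblast genes, 2 were called lower and 1 higher in the Thy step with CD105 and 4 lower and 0 higher without it, with 1 and 2 lower in the 6C3 steps, and their mean ran from 6.37 to 7.01 on Thy+ arrays and 6.97 to 8.02 on 6C3+ arrays, against 7.97 to 9.04 on Thy-6C3- arrays. Of 10 pericyte and smooth muscle genes, 8 were called higher and 1 lower in the Thy step with CD105, where the list averaged 9.94 to 10.14 in Thy+6C3-CD105+ cells, against 8.09 to 8.39 in Thy-6C3-CD105+ cells, and 3 higher and 2 lower without CD105. Of 10 endothelial genes, 4 were called higher with CD105 and 2 without it, at list means of 5.70 to 6.02 in Thy+6C3-CD105+ cells, against 5.09 to 5.43 in Thy-6C3-CD105+ cells. Of 5 adipocyte genes, 2 and 1 were called higher. The part of these lists in the forkhead differences was not tested.

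**Figure D1:**
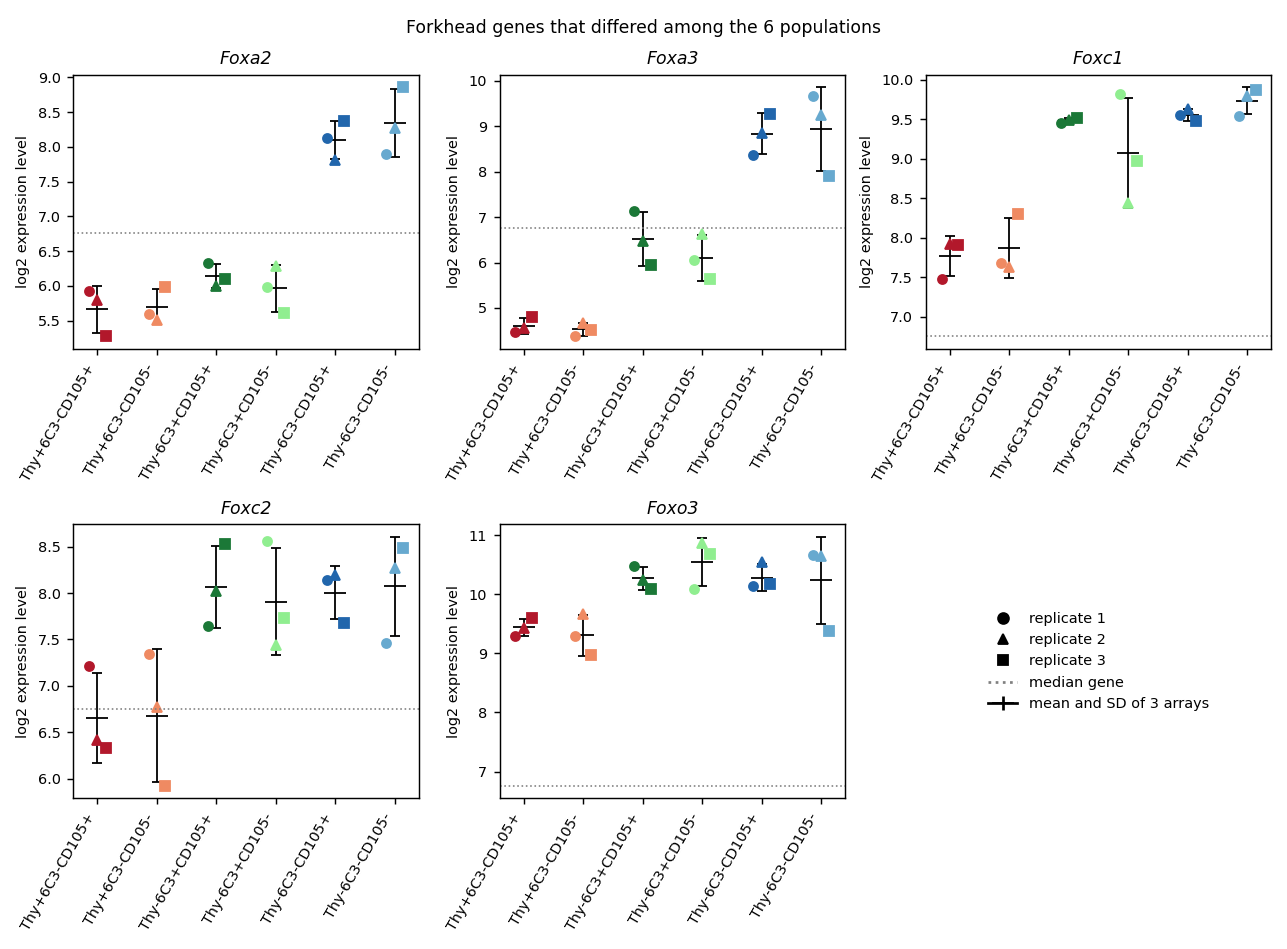
Log2 expression level (y axis) of Foxa2, Foxa3, Foxc1, Foxc2 and Foxo3 in the 6 populations (x axis); points are arrays, with a symbol per replicate, bars the mean and SD of 3 arrays, and the dotted line the median gene mean of 6.76. Foxa2 and Foxa3 were high in the Thy-6C3- populations alone, where Foxa3 averaged 8.83 and 8.94, whereas Foxc1 was also high in 6C3+ cells, at 9.49 and 9.08.

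Both Foxc genes were lower in Thy+ than in Thy-6C3- cells, and Foxc1 was lower there than in 6C3+ cells as well. Foxc1, which in mice is needed for skull, vertebral and bone marrow niche development, was at 7.49, 7.93 and 7.90 in Thy+6C3-CD105+ cells and at 9.46, 9.49 and 9.52 in Thy-6C3+CD105+ cells, against 9.56, 9.63 and 9.47 in Thy-6C3-CD105+ cells. Among CD105- cells it was at 7.68, 7.63 and 8.30 with Thy and at 9.82, 8.44 and 8.97 with 6C3, against 9.54, 9.80 and 9.87 in Thy-6C3-CD105- cells. The 6 Thy+ arrays lay below the other 12. Across the Thy step Foxc1 was 3.44-fold lower in CD105+ cells (-1.78 ± 0.27, limma adjusted p 0.000324) and 3.65-fold in CD105- cells (-1.87, adjusted p 0.000196; -2.08 without Thy+6C3-CD105- replicate 3). The gene's other probe set gave -1.89 and -2.01 for these steps.

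The 6C3 step of Foxc1 was not called. The differences were -0.07 ± 0.27 in CD105+ and -0.66 ± 0.27 in CD105- cells, the second with limma adjusted p 0.276. Directly compared, Thy+ cells lay 3.28-fold below 6C3+ cells with CD105 (-1.72, adjusted p 0.000897) and 2.31-fold without it (-1.21, adjusted p 0.0241; -1.42 without Thy+6C3-CD105- replicate 3). The CD105- call was lost when the fit left out Thy+6C3-CD105- replicate 1 or 2 (-1.11 and -1.09) or Thy-6C3+CD105- replicate 1 (-0.83).

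Foxc2, a relative of Foxc1 in axial skeleton and lymphatic valve formation, was at 7.22, 6.42 and 6.33 in Thy+6C3-CD105+ cells, against 8.14, 8.19 and 7.68 in Thy-6C3-CD105+ cells. Among CD105- cells it was at 7.34, 6.77 and 5.92 with Thy, against 7.47, 8.27 and 8.48 in Thy-6C3-CD105- cells. The 2 pairs did not overlap, though in CD105- cells the nearest arrays were only as far apart as 7.34 and 7.47. Foxc2 was 2.54-fold lower across the Thy step with CD105 (-1.35 ± 0.38, limma adjusted p 0.0419) and 2.62-fold lower without it (-1.39, adjusted p 0.0206). The CD105+ call was lost without any of 8 arrays, with limma adjusted p up to 0.181, and with the replicate block. The CD105- call was lost on leaving out Thy-6C3-CD105- replicate 2 or 3 (-1.29 and -1.19) or Thy+6C3-CD105- replicate 3 (-1.01, limma adjusted p 0.105). Foxc2 in 6C3+ cells averaged 8.07 ± 0.44 with CD105 and 7.91 ± 0.58 without it (SD, n = 3 arrays each), and neither 6C3 step nor the comparison of Thy+ with 6C3+ cells was called (-1.41 and -1.23 for the comparison, limma adjusted p 0.0672 and 0.110).

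Both Foxc genes sit in forkhead gene clusters. In the RefSeq annotation of GRCm38.p6, Foxq1, Foxf2 and Foxc1 follow one another on chromosome 13 with no protein-coding gene between them. On chromosome 8, Foxf1 is followed by 1 other protein-coding gene, then Foxc2 and Foxl1. Of these neighbours Foxq1, Foxf2 and Foxl1 were called in 0 of the 9 comparisons and averaged 5.77, 4.25 and 5.52, all below the median gene. Foxf1 was called in the CD105- Thy step, where it was higher (1.04) and Foxc2 lower (-1.39). Without Thy+6C3-CD105- replicate 3 neither was called (0.64 for Foxf1 and -1.01 for Foxc2). With the mean of its probe sets Foxf1 differed by 0.27 and was not called.

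Few forkhead genes were called in the other antigen-positive comparisons. The Thy step in CD105+ cells called 4 of 37 (Foxa2, Foxa3, Foxc1 and Foxc2, all lower), 10.8% where 6.66% of all genes were called and 2.63% were called lower. Groups did not overlap for 14 members in that step, where 26.2% of all genes had groups that did not overlap. The 6C3 step called Foxa2 and Foxa3, both lower, in each background, 5.41% where 1.36% of all genes were called with CD105 (0.797% lower) and 2.74% without it (1.5% lower). Thy+ against 6C3+ cells called 2 with CD105 (Foxa3 and Foxc1) and 3 without it (Foxa3, Foxc1 and Foxo3), all lower, where 2.59% and 2.24% of all genes were called and 0.879% and 1.32% were called lower. Without Thy+6C3-CD105- replicate 3, these counts were 5, 2, 3, 3 and 1, in the order of the Thy step, the 6C3 step with and without CD105, and Thy+ against 6C3+ cells with and without it, where 8.92%, 2.02%, 4.32%, 3.19% and 1.79% of all genes were called. The members called then and not with all arrays were Foxj3 in the Thy step (-0.57, limma adjusted p 0.0473), Foxn4 in the CD105- 6C3 step (0.78, limma adjusted p 0.0414) and Foxc2 for Thy+ against 6C3+ cells with CD105 (-1.41, limma adjusted p 0.0276). The count for Thy+ against 6C3+ cells was also 1 without Thy-6C3+CD105+ replicate 1 where CD105 was present, and 1 without Thy-6C3+CD105+ replicate 2 or Thy-6C3+CD105- replicate 1 or 2 where it was absent. These comparisons share their Thy-6C3- or Thy+ arrays and are not independent of one another.

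**Figure D2:**
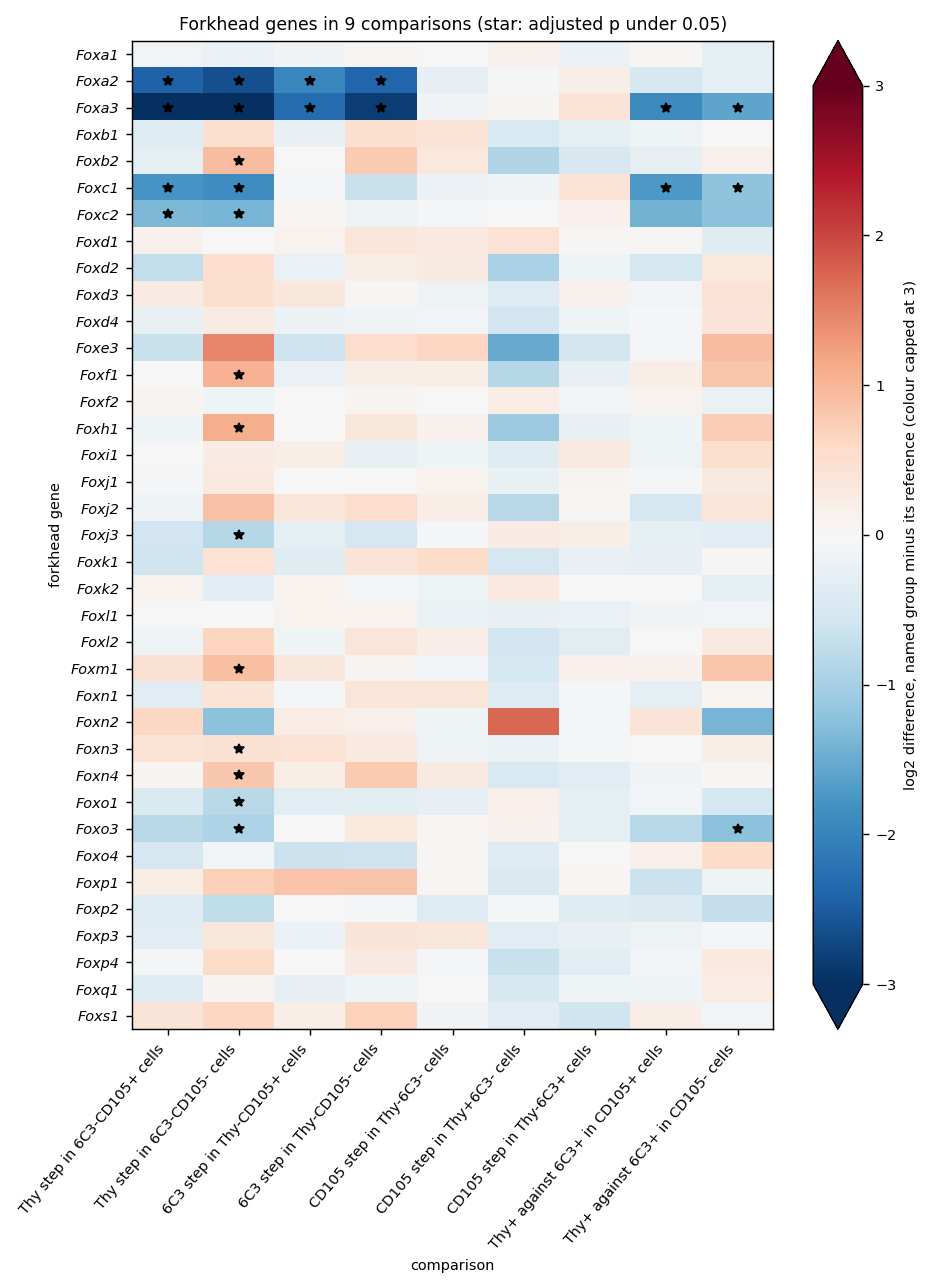
Log2 difference (colour, capped at 3; red higher, blue lower in the population named first) of the 37 forkhead genes (y axis) in the 9 comparisons (x axis); stars mark limma adjusted p under 0.05. Foxa2 and Foxa3 have stars in both Thy and both 6C3 steps, 13 genes have stars in the Thy step of 6C3-CD105- cells, and the 3 CD105 steps have none.

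Foxo3 was called lower in Thy+ cells in the CD105- comparisons, while the Thy steps with and without CD105 differed by 0.085 ± 0.419 (limma unadjusted p 0.842). Foxo3, which regulates stress resistance, apoptosis and autophagy genes, was at 9.28, 9.66 and 8.96 in Thy+6C3-CD105- cells and at 10.08, 10.86 and 10.68 in Thy-6C3+CD105- cells, against 10.67, 10.65 and 9.38 in Thy-6C3-CD105- cells. With CD105 it was at 9.29, 9.43 and 9.59 in Thy+ cells and at 10.47, 10.25 and 10.08 in 6C3+ cells, against 10.14, 10.54 and 10.16 in Thy-6C3-CD105+ cells. Thy+ arrays were the lowest except that Thy-6C3-CD105- replicate 3, at 9.38, fell within their range.

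Across the Thy step Foxo3 was 1.90-fold lower in CD105- cells (-0.93 ± 0.30, limma adjusted p 0.0392), with overlapping groups. In CD105+ cells the difference of -0.84 ± 0.30 was not called (adjusted p 0.117), although the groups did not overlap. Thy+ cells lay 2.36-fold below 6C3+ cells without CD105 (-1.24, adjusted p 0.0340). Each Foxo3 call was lost without any of several arrays, among them Thy+6C3-CD105- replicate 3 (-0.76 and -1.07), and with the mean of the gene's 3 probe sets, which gave -0.49 for the step and -0.67 for the comparison with 6C3+ cells. Singly, the other probe sets gave -0.58 and 0.04 in the CD105- Thy step.

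Foxo1, the Foxo factor best known for insulin-regulated metabolism, was at 9.10, 8.71 and 8.13 in Thy+6C3-CD105- cells, against 9.53, 9.43 and 9.47 in Thy-6C3-CD105- cells, and these groups did not overlap. It was 1.78-fold lower (-0.83 ± 0.22, limma adjusted p 0.0166), a call lost without Thy+6C3-CD105- replicate 3 (-0.57) or Thy-6C3-CD105- replicate 1 (-0.80) and with the mean of 4 probe sets (-0.16). Foxo4, the remaining Foxo member, averaged 8.03 (range 7.15 to 8.98) and was not called.

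Genes downstream and upstream of the Foxo factors were read from lists chosen with earlier results of these data known. Of 32 reported Foxo target genes, 5 were called lower and 0 higher in the Thy step with CD105, and 9 lower and 0 higher without it, or 6 lower without Thy+6C3-CD105- replicate 3. The list's median differences were -0.14 and -0.25, beside medians of -0.02 and 0.13 over all genes, and without that array the CD105- median was -0.01, beside 0.11 over all genes. Leaving out Thy-6C3-CD105- replicate 1 or 2 left 3 or 4 called in the CD105- step. The share called lower in that step with all arrays was 28.1%, where 7.45% of all genes were called lower, and with CD105 it was 15.6%, where 2.63% were. Called lower in both steps were Cdkn1a, a cell cycle inhibitor (-1.13 and -1.07), Gadd45b, a stress-response gene (-1.60 and -1.55), Klf15, a metabolic transcription factor (-1.97 and -1.10), Bnip3, a mitophagy gene (-1.10 and -0.80), and Gadd45a (-1.83 and -1.89). The 6C3 steps each called 1 gene of the list, Gadd45b (-1.32 and -1.46).

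The insulin and PI3K-Akt list, which holds the pathway that restrains Foxo factors, had 19 measured genes. The Thy step called 1 of them lower with CD105 (3 without Thy+6C3-CD105- replicate 3), and 5 lower and 2 higher without it, a count that ran from 2 to 8 as single arrays were left out and was 2 lower and 0 higher without Thy+6C3-CD105- replicate 3. The share lower was 5.26% with CD105 and 26.3% without it, beside 2.63% and 7.45% of all genes, and the share higher without it was 10.5%, as over all genes. With a common median only, 10 were lower and 1 higher without CD105. Sgk3, a kinase related to Akt, was lower in both steps (-1.26 and -1.53). Irs1, an adaptor of the insulin and Igf1 receptors, was lower in the CD105- Thy step (-1.25) and in the CD105- 6C3 step (-1.27), where it was the single call on this list. The medians of the list were -0.20 and -0.37 in the Thy steps, beside -0.02 and 0.13 over all genes. No gene of it was called in the 6C3 step with CD105. Insr and Irs2 stand both in this list and among the Foxo target genes.

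Some genes of the hypertrophic growth plate, where Foxa2 and Foxa3 act in the mouse, were called lower in the same steps. Of 14 measured genes, 5 were lower and 0 higher in the Thy step with CD105 and 11 lower and 0 higher without it, or 10 without Thy+6C3-CD105- replicate 3. These are 35.7% and 78.6% of the list, beside 2.63% and 7.45% of all genes called lower. In the 6C3 steps 4 and 8 were lower and 0 higher, 28.6% and 57.1%, beside 0.797% and 1.5% of all genes. Col10a1, the collagen of hypertrophic cartilage, differed by -2.63 and -2.93 in the Thy steps and by -2.66 and -3.22 in the 6C3 steps. Panx3, a channel protein of hypertrophic chondrocytes and osteoblasts, differed by -5.05 and -6.02 in the Thy steps and by -4.60 and -5.70 in the 6C3 steps. The list's medians were -0.98 and -1.56 in the Thy steps and -0.84 and -1.25 in the 6C3 steps, beside -0.02, 0.13, 0.00 and 0.07 over all genes. The general chondrocyte list fell as well, with 100% called lower in both Thy steps and 40% and 60% in the 6C3 steps. Alpl, Ibsp and Sp7 stand both in the hypertrophic list and among the osteoblast genes. The part of Foxa2 and Foxa3 in these differences was not tested.

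The hedgehog list, whose Gli factors lie upstream of several forkhead genes in other tissues, had 15 measured genes. The Thy step called 4 lower and 0 higher with CD105, and 4 lower and 1 higher without it. The 4 are 26.7% of the list, beside 2.63% and 7.45% of all genes called lower, and the rise is 6.67%, beside 10.5% of all genes called higher. Ihh, the hedgehog ligand of prehypertrophic chondrocytes and also a gene of the hypertrophic list, differed by -2.13 and -2.58. Ptch1, the receptor and a hedgehog target, differed by -1.49 and -2.36, and Hhip, a ligand-binding inhibitor and target, by -1.41 and -1.34. Shh, the single rise, was higher in Thy+6C3-CD105- cells by 1.97. In the 6C3 steps Ihh differed by -1.92 and -3.05, and Ptch1 without CD105 by -1.53. The CD105- Thy step called as many without Thy+6C3-CD105- replicate 3, and 3 without Thy-6C3-CD105- replicate 3. Median differences of the list were -0.43 and -0.11 in the Thy steps, beside -0.02 and 0.13 over all genes.

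The Thy step in CD105- cells called more forkhead genes than any other comparison, and its count moved with single arrays. It called 13 of 37, 6 higher and 7 lower, or 35.1% where 18% of all genes were called, 10.5% higher and 7.45% lower. Groups did not overlap for 20 of the 37, where 34.7% of all genes had groups that did not overlap. Without Thy+6C3-CD105- replicate 3 the count was 3 of 37, 8.11% where 9.71% of all genes were called. The 3 that kept their calls were Foxa2, Foxa3 and Foxc1. The other 10, with all 6 rises among them, had limma adjusted p from 0.0535 to 0.194 without that array. The count was also 6 without Thy-6C3-CD105- replicate 1 or 3 and 8 without replicate 2 of Thy+6C3-CD105+ or of Thy-6C3+CD105+, where 11.1%, 8.51%, 15.3% and 15.2% of all genes were called.

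The 6 rises came from factors known in other tissues. Foxm1, the mitotic activator, was at 7.77, 7.04 and 8.57 in Thy+6C3-CD105- cells, against 6.68, 7.00 and 6.97 in Thy-6C3-CD105- cells (0.91 ± 0.29, limma adjusted p 0.0392). Foxf1, a factor of visceral mesenchyme and lung vessels, was at 7.10, 7.00 and 8.26 with Thy, against 6.46, 6.39 and 6.38 (1.04 ± 0.31, limma adjusted p 0.0284), while its other probe set gave -0.49. Foxh1, a partner of Smad proteins in Nodal signalling, was at 8.30, 8.41 and 8.85 with Thy, against 7.39, 7.55 and 7.35 (1.09 ± 0.35, limma adjusted p 0.0396). None of these groups overlapped, though for Foxm1 the nearest arrays were only as far apart as 7.04 and 7.00. Replicate 3 was the highest Thy+6C3-CD105- array for each. Without it the differences were 0.52 for Foxm1, 0.64 for Foxf1 and 0.93 for Foxh1, none of them called. Foxm1 also lost its call and fell to 0.63 on the values as deposited, 0.49 with a common median only, 0.50 with the mean of probe sets and 0.49 with array weights. Foxh1 lost its call at 0.74 as deposited, 0.60 with a common median only and 0.50 with the mean of probe sets, and Foxf1 at 0.27 with that mean and 0.69 with array weights.

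Foxb2, a factor of the developing nervous system, was at 6.11, 6.62 and 6.89 in Thy+6C3-CD105- cells, against 5.66, 5.84 and 5.33 in Thy-6C3-CD105- cells (0.93 ± 0.31, limma adjusted p 0.0447). That call was lost without any of 12 arrays. It was also lost with high or low poly-A control signal as a block (limma adjusted p 0.0575) and with the compared populations only (limma adjusted p 0.0695). The gene's population means, from 5.61 to 6.54, all lay below the median gene mean of 6.76. Foxn4, which specifies retinal amacrine and horizontal cells, was at 7.13, 7.09 and 7.56 with Thy, against 6.54, 6.68 and 6.14 (0.81 ± 0.22, limma adjusted p 0.0196). Foxn3, a repressor linked to cell cycle checkpoints, was at 10.30, 10.12 and 10.41 with Thy, against 9.69, 10.01 and 9.73 (0.47 ± 0.16, limma adjusted p 0.0473). The Foxn3 value turned to -0.09 when the arrays were only set to a common median, so its direction depends on the scaling. It was 0.05 as deposited, and its call was lost with the replicate block (limma adjusted p 0.0590). The Foxn3 call was also lost without any of 14 arrays. Array weights, the mean of its probe sets, grouping by title and the compared populations only each lost it too. Foxn4 lost its call at 0.52 with a common median only. Foxj3, a factor of muscle regeneration and sperm development, was at 10.27, 10.16 and 9.45 with Thy, against 10.54, 11.06 and 10.89 (-0.87 ± 0.22, limma adjusted p 0.0124). All 4 pairs of groups were free of overlap, and replicate 3 was again the extreme Thy+ array. Without it Foxb2 differed by 0.76, Foxn4 by 0.66, Foxn3 by 0.40 and Foxj3 by -0.61, none of them called.

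Other values moved with this population. Genes below the median level shifted up in this step by a median of 0.18, with 69.7% of them higher, while genes above it shifted by 0.05, with 53.3% higher. The keratinocyte list averaged 6.83 to 7.17 per array in Thy+6C3-CD105- cells and between 5.80 and 6.24 on all other arrays, and 4 of its 10 genes were called higher in this step. The blood list averaged 5.60 to 5.94 in Thy+6C3-CD105- cells, against 5.03 to 5.26 in Thy-6C3-CD105- cells, with 2 of 11 genes called higher. The lymphocyte list averaged 5.91 to 6.30, against 5.44 to 5.69, with 3 of 7 genes called higher, and the neural crest and Schwann list 6.33 to 6.49, against 5.80 to 5.98, with 2 of 5 called higher and 1 lower. The skeletal muscle and ciliated epithelial lists each had 1 gene called higher, of 8 and of 6. Foxd3 stands in the neural crest and Schwann list and Foxj1 in the ciliated epithelial list, so forkhead values enter both lists. Neither of these members was called. In Thy+6C3-CD105- cells the means of 9 of the 11 blood genes, 4 of the 7 lymphocyte genes and 4 of the 10 keratinocyte genes lay below the median gene. Their part in the forkhead differences was not tested.

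**Figure D3:**
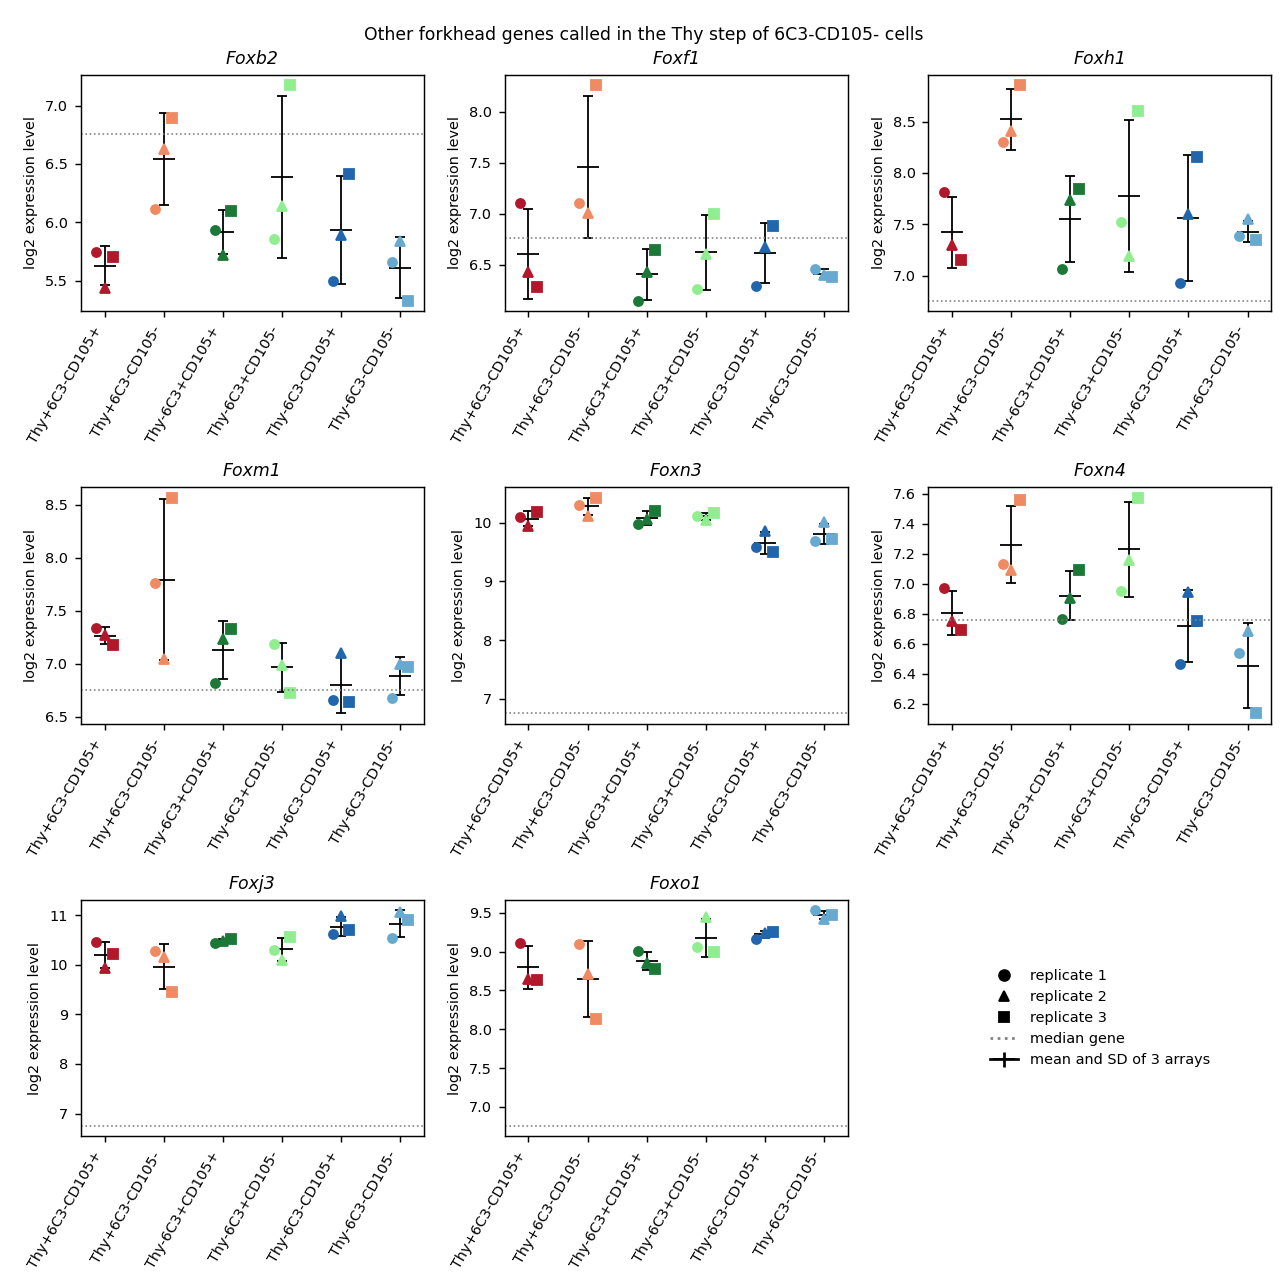
Log2 expression level (y axis) of the 8 further forkhead genes called in the Thy step of 6C3-CD105- cells, by population (x axis), with a symbol per replicate, the mean and SD of 3 arrays as bars, and the dotted line at the median gene mean of 6.76. The square in Thy+6C3-CD105- cells, replicate 3, is the extreme array of its group for each gene, as for Foxf1 at 8.26 and Foxo1 at 8.13.

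The mitotic targets of Foxm1, read from a list chosen in the same way, were higher where they were called. Of 25 measured genes of the list, 5 were higher and 0 lower in the Thy step with CD105 and 12 higher and 0 lower without it, or 11 higher without Thy+6C3-CD105- replicate 3. These are 20% and 48% of the list, beside 4.03% and 10.5% of all genes called higher. The CD105- count was 5 on the values as deposited and 4 with a common median only, so it depends on the quantile normalization. It was also 4 without Thy-6C3-CD105- replicate 3, and the CD105+ count ran from 1 to 8 as single arrays were left out. The median differences were 0.64 and 0.75, beside -0.02 and 0.13 over all genes. Examples in the CD105- step were Bub1b, a spindle checkpoint kinase (1.60), Cdc20, an activator of the anaphase-promoting complex (1.42), and Mki67, a marker of cycling cells (1.21). Cenpf, a kinetochore protein, was higher by 1.14 with CD105 and 0.72 without it. When only the arrays of the compared populations were fitted, 10 genes were called higher with CD105 and 0 without it. Foxm1 in the CD105+ Thy step differed by 0.47 ± 0.29 and was not called (limma adjusted p 0.521). The 6C3 steps called 0 of the 25, with medians of 0.42 and 0.34.

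CD105 itself was not accompanied by called forkhead differences. limma called 0 of 37 in the CD105 step of Thy+6C3-, Thy-6C3+ and Thy-6C3- cells, where 1.02%, 0% and 0.0055% of all genes were called. At an unadjusted p under 0.05 the counts were 10, 1 and 1 in the same order, or 27%, 2.7% and 2.7% of members, beside 22.4%, 2.74% and 1.75% of all genes. In Thy+6C3- cells the members' median difference was -0.37, beside -0.08 over all genes, array weights called 8, all lower in CD105+ cells (21.6% of members, beside 14.1% of all genes), and 2 were called without Thy+6C3-CD105- replicate 1, where 4.03% of all genes were. Without Thy+6C3-CD105- replicate 3 that comparison called 0 members and 0.506% of all genes, 7 members had an unadjusted p under 0.05 (18.9%, beside 9.87% of all genes), and the members' median was -0.24, beside -0.05. The dependence of the Thy step on CD105, tested as an interaction with limma, was called for 0 of 37 members, where 0.269% of all genes were called, and 8 members had an unadjusted p under 0.05 (21.6%, beside 16.7% of all genes), or 6 (16.2%, beside 10.3%) without Thy+6C3-CD105- replicate 3. The dependence of the 6C3 step was called for 0, with 1 at an unadjusted p under 0.05 (2.7%, beside 2.98% of all genes) and 0% of all genes called.

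Of the 24 members called in none of the 9 comparisons, 10 lay above the median gene mean. Signals of different probe sets depend on their probes, so their order is no order of abundance. Foxp1, a factor of lymphocyte, muscle and bone cell differentiation, was at 10.07, 10.04 and 10.64 in Thy-6C3+CD105+ cells, against 8.99, 9.87 and 9.31 in Thy-6C3-CD105+ cells, without overlap. Among CD105- cells Foxp1 averaged 10.18 ± 0.29 with 6C3, against 9.33 ± 0.53 in Thy-6C3-CD105- cells (SD, n = 3 arrays each). The 6C3 steps of 0.86 ± 0.27 and 0.85 ± 0.27 had limma adjusted p of 0.200 and 0.128. In the Thy step of CD105- cells it differed by 0.72 (limma adjusted p 0.0743), while another of its 8 probe sets differed by 0.88 (limma adjusted p 0.0281 over all single-symbol probe sets). That probe set was not fitted without Thy+6C3-CD105- replicate 3. Foxp2, known from brain and lung, averaged 8.04 (range 6.75 to 9.15), and Foxp4, a related factor of lung and heart, 6.81 (6.25 to 7.58).

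Foxk1, a factor of muscle progenitors and metabolism, averaged 9.37 (range 8.04 to 10.35), and its relative Foxk2 8.35 (8.03 to 8.75). Probe sets other than the one read passed over all single-symbol probe sets in the CD105- Thy step for Foxk2 (1 of 5 probe sets, -1.17, limma adjusted p 0.0298) and Foxp2 (2 of 6, -1.26 and -2.14, limma adjusted p 0.0243 and 0.0147). These probe sets, too, were fitted only with Thy+6C3-CD105- replicate 3 included. Foxj2 averaged 8.92 (7.50 to 9.68). Foxn2 averaged 8.33 with the widest spread of all members within a population: Thy+6C3-CD105- replicate 3 was at 4.87, while the other arrays of that population had 7.87 and 8.86. Foxd2, a mesenchymal factor, averaged 7.02 (6.04 to 8.29). Foxl2, the ovarian and eyelid factor, averaged 6.82 (6.24 to 7.47).

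The other 14 uncalled members lay below the median gene mean, where a difference may not be readable on an array. Foxe3, the lens factor, averaged 6.69 (range 5.76 to 8.23). It reached 1.47 ± 0.52 in the Thy step of CD105- cells without a call (limma adjusted p 0.0577). Foxd1, a factor of kidney stroma, averaged 6.14 (5.33 to 6.87). Foxs1 averaged 5.74 (5.09 to 6.48), and Foxi1, a factor of inner ear and ion-transporting cells, 5.65 (5.26 to 6.20). Foxd3, a neural crest factor, averaged 5.32 (4.84 to 5.86).

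Foxq1, known for its part in hair structure, ran from 5.45 to 6.48, and Foxl1, a marker of gut mesenchyme, from 5.26 to 5.90. Foxn1, the factor of thymic epithelium and hair, averaged 5.15 (4.74 to 5.48). It had the lowest p of all members for the dependence of the Thy step on CD105 (unadjusted 0.00619, limma adjusted p 0.223). Foxb1 averaged 5.04 (4.64 to 5.71). Foxj1, the master factor of motile cilia, averaged 4.78 (4.27 to 5.15). Foxd4 averaged 4.58 (4.25 to 5.10), and Foxf2, a mesenchymal relative of Foxf1, ran from 3.82 to 4.71. Foxp3, the factor of regulatory T cells, averaged 4.01 (3.73 to 4.59), in cells sorted as CD45-.

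**Figure D4:**
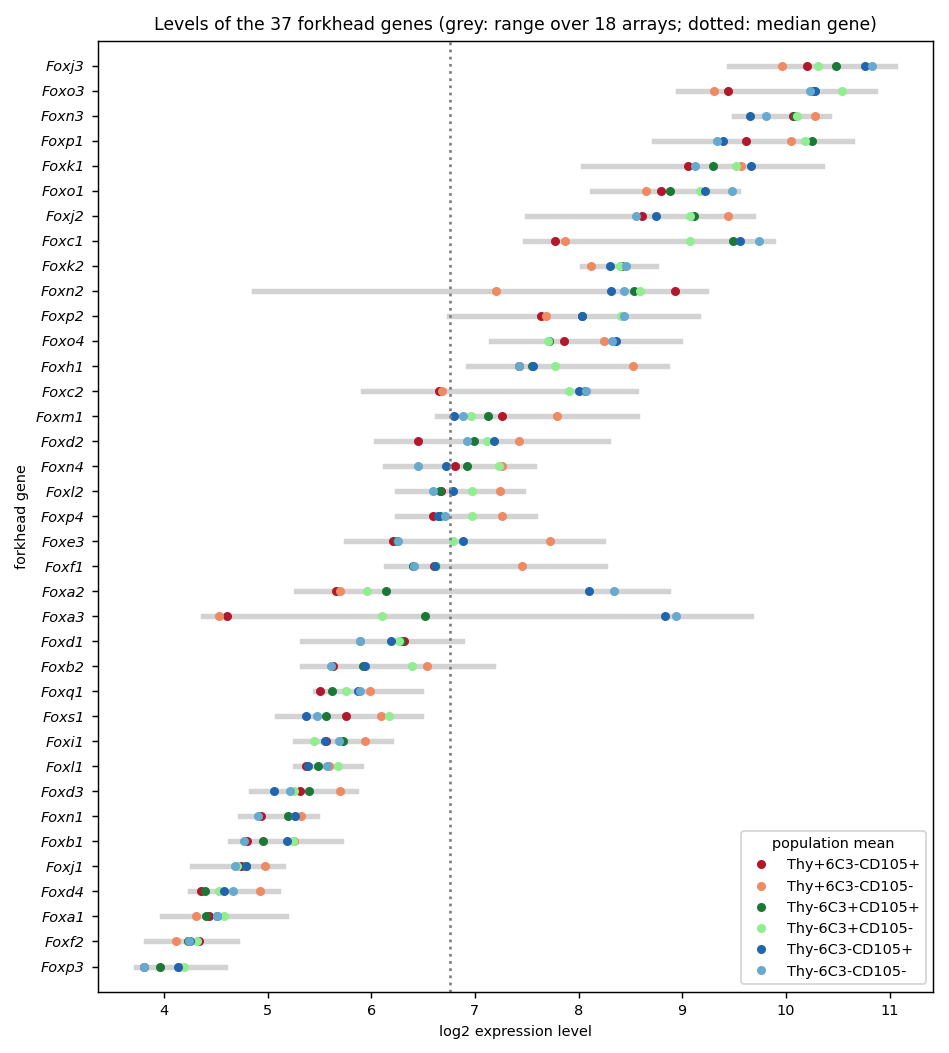
Population means (coloured points) and range over the 18 neonatal arrays (grey bars) of the log2 expression level (x axis) of the 37 forkhead genes (y axis, ordered by mean), with the median gene mean of 6.76 dotted. Signals of different genes also depend on their probes. The population means of Foxa3 spread the most, by 4.41, and 19 genes lay above and 18 below the median gene mean.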

How the data were processed

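RNA of 19 samples was measured on Affymetrix mouse arrays. The values are deposited log2 levels of 45101 probe sets, ranging from 2.55 to 14.6, read as log2 from that range. The authors' steps between scans and values were not given in the sources used here. Per the labels' protocols, RNA was amplified in successive rounds before labelling. Because array medians ran from 5.60 to 6.02, differing by more than 0.1, the deposited log2 values were quantile normalized over the 19 arrays. No filter on low values was set. Arrays carry no read depth, and 3 per population limit the precision.

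Control probe sets (64) were left out, and 34945 probe sets had 1 symbol, 932 several and 9160 none in the annotation table. Each of 18193 genes was read by its single-symbol probe set of highest mean over the 18 neonatal arrays. Arrays were grouped by the labels' population field. limma 3.58.1 in R 4.3.3 fitted 1 mean per population (12 residual degrees of freedom) with a mean-variance trend, for 9 two-sided comparisons, 2 interactions and an F-test, with Benjamini-Hochberg adjustment over all genes. The fit was also run on simulated arrays with independent noise. These held no deviating array and no scaling difference, so that run cannot show how the fit behaves with such arrays. Forkhead genes called in any comparison or by the F-test have array values printed for the populations in which they were called. Their values on all 18 arrays are in the figures. The other members mostly have a mean and range. The members, the gene lists and the marker lists were chosen with earlier results of these data known. The adult array entered no test. Alternatives changed the scaling, probe set choice, filter, weights, blocks, grouping and arrays. Promoters came from RefSeq, build GRCm38.p6, and 13 members had no matched entry.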

Additional observations from a re-analysis of the deposited data

Results flagged for a closer look

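The array of adult cells, labelled Thy+6C3+CD105+, entered no comparison, and its source field names sternum and ear while its tissue field names limbs. Foxo1 was at 10.04 there, above all 18 neonatal arrays, whose highest value was 9.53. Foxo3 was at 11.09, also above all neonatal arrays, whose highest was 10.86. It is a single array that differs from the others in age, tissue label and antigens, so these cannot be told apart and no test was possible.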

How the results depend on the processing

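Foxa2, Foxa3 and Foxc1 in both Thy steps, and Foxa2 and Foxa3 in both 6C3 steps, kept their direction and call under every alternative that tested them. Over all 26 called differences, 716 alternative values were computed: 584 kept the direction and the call, 131 kept the direction alone, and 1 turned, Foxn3 in the CD105- Thy step at -0.09 with a common median only. Counts of called forkhead genes moved as follows, each with the share of all genes called in brackets. In the Thy step with CD105 (4), the count was 2 (10.5%) with genes above the median level only, 7 (15.9%) with array weights, and 3 to 5 leaving out single arrays. In the Thy step without CD105 (13), it was 8 (19.7%) with the mean of probe sets, 4 (6.5%) with the compared populations only, 5 (11.6%) without the 2 arrays of highest deposited median (an alternative chosen after seeing the data), and 3 to 14 leaving out single arrays. In the 6C3 steps (2 each), it was 0 (2.56% and 5.21%) with genes above the median level only, since Foxa2 and Foxa3 lie below it, and 2 to 2 with CD105 and 2 to 3 without it leaving out single arrays. In the CD105 step of Thy+6C3- cells (0), it was 1 (1.13%) on the values as deposited, 8 (14.1%) with array weights and 0 to 2 leaving out single arrays; the other CD105 steps stayed at 0. For Thy+ against 6C3+ cells with CD105 (2), it was 1 (3.23%) with genes above the median level only, 4 (4.49%) with the compared populations only, 4 (8.24%) with array weights and 1 to 3 leaving out single arrays. Without CD105 (3), it was 0 (0.181%) with the compared populations only, 1 (1.6%) with array weights, 1 (0.363%) grouped by title, 1 (1.33%) without the 2 arrays of highest median and 1 to 3 leaving out single arrays. The Thy by CD105 interaction (0) gave 2 (3.55%) with array weights, and the F-test (5) gave 10 (21.4%) with array weights and 3 to 7 leaving out single arrays. The 2 arrays of highest deposited median were Thy-6C3+CD105- replicate 2 (6.02) and Thy+6C3-CD105- replicate 3 (5.91). Leaving them out therefore overlaps with leaving out the second of them alone. The causes of the moves in these counts were not tested.

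Pairing of the samples by replicate number was not evident, though this check cannot exclude it. Deviations of 45 same-numbered pairs of arrays correlated from -0.564 to 0.670, with 19 above 0.1. Their median was 0.0285, beside 0.0112 for differently numbered pairs, and 8 of 18 arrays correlated best with their own number. With a replicate block the counts were 3 (Foxc2 lost) and 13 in the Thy steps, 12 of them shared with the calls without the block (Foxn3 lost, Foxe3 gained at 1.47, limma adjusted p 0.0383), 2 and 2 in the 6C3 steps, 0 in each CD105 step, 2 and 3 for Thy+ against 6C3+ cells, 0 in both interactions, and 5 in the F-test. Within arrays of high and of low poly-A control signal, each with 1 or 2 arrays a population, the Thy step of Foxa3 was -4.14 and -4.39 with CD105 and -5.06 and -4.19 without it, that of Foxa2 was -2.71 and -1.89 with CD105 and -2.15 and -2.97 without it, and that of Foxc1 was -1.60 and -2.15 with CD105 and -1.58 and -2.16 without it. Small differences of members near the array background could not be read.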

Other observations

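On the same adult array, 5 forkhead genes lay below all 18 neonatal arrays: Foxb1, Foxd4, Foxk2, Foxp2 and Foxq1. Foxp2 was the farthest, at 5.31 against a neonatal minimum of 6.75, and Foxk2 was at 7.64 against 8.03. Foxd4 was at 4.23 against 4.25, Foxb1 at 4.62 against 4.64 and Foxq1 at 5.42 against 5.45, each only just below the neonatal range. Foxc1, at 9.66, and Foxc2, at 8.14, lay within the neonatal range and above their means in Thy+ neonatal cells (7.77 and 7.87 for Foxc1, 6.66 and 6.68 for Foxc2). Foxa2, at 7.50, and Foxa3, at 7.31, fell between the means of the neonatal 6C3+ and Thy-6C3- populations.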
